A study of Mus musculus with 6 samples.

Results

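The Hedgehog pathway genes described here are 9 genes: the ligands Shh, Ihh and Dhh, the receptor Ptch1, the decoy receptor Hhip, the transducer Smo, and the transcription factors Gli1, Gli2 and Gli3. They were found as every probe of the array whose gene name in the scanner files equals a member, which gave 12 of the 55681 probes and 9 of 21938 named genes. Ptch1, Smo and Hhip had 2 probes each and the other 6 genes had 1. RNA came from the prostates of 6-day-old male FVB/N mice carrying the Tg 11.5kb-GFP transgene, in which the s-SHIP promoter drives GFP. No treatment was given. Cells lacking the lineage markers Ter119, CD31 and CD45 (Lin-) and positive for Sca-1 and CD49f, called LSC, were sorted into LSC GFP+ cells and LSC GFP- cells, with 3 independent samples of each and 1 array per sample. Both populations carry the transgene and differ by the GFP gate. The study describes GFP from this promoter also in vascular smooth muscle of the prostate, and how many mice went into a sample is not given in the sources used here. The question was whether the 2 LSC populations differ in gene expression.

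A Hedgehog ligand is made with a lipid on each end, is released by the producing cell and binds Ptch1 on a receiving cell. Ligand-bound Ptch1 no longer holds back Smo, which then moves into the primary cilium and lets the Gli factors act on their target genes. Gli1 is an activator and is itself a target, Gli2 is the main activator and Gli3 acts largely as a repressor in the absence of ligand. Ptch1 and Hhip are also targets, so both bind ligand in cells that have responded to it. In the growing prostate, Shh is known as an epithelial ligand, and Gli1 and Ptch1 are known to respond mainly in the neighbouring mesenchyme.

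The readout of each gene is a 60-base probe, so 30 bases of the probes on which the results turn are shown first, with their positions in the mm9 build as the array design gives them. The second stretch of Smo holds a run of alternating A and C, in capitals, that the first stretch does not, and the difference between those probes matters for the level of Smo below. An annotation of mm9 was not used here, so exon and UTR positions are not stated.

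Shh, probe A_52_P49014, chr5:28783983-28784042, minus strand, bases 31 to 60: tgagggaaagattattttgtgaggccaagc
Ptch1, probe A_52_P598605, chr13:63610298-63610357, minus strand, bases 31 to 60: gatctttgctgatatttataattttgtatc
Gli1, probe A_55_P2183587, chr10:126766967-126767026, minus strand, bases 31 to 60: gaaagaacaaactttaataatgacacagtt
Gli3, probe A_51_P171288, chr13:15821502-15821561, plus strand, bases 31 to 60: tcctgcagatgtgtaaaataaactgtgttc
Smo, probe A_51_P258766, chr6:29711225-29711284, plus strand, bases 31 to 60: ttcaagaaccagacaacaggatgccttaga
Smo, probe A_55_P2121484, chr6:29710919-29710978, plus strand, bases 16 to 45: CACACACAgACACACACACACAtacactct

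All levels below are log2 signals relative to the 75th percentile of their array, and all differences are LSC GFP+ minus LSC GFP- on that log2 scale. A level belongs to its probe, so levels of different genes are not ranked. On the arrays between 65.8% and 75.7% of probes were well above background, the mark the scanner software gives a spot clearly brighter than its background. No spot was saturated, and pairs of arrays correlated at r between 0.963 and 0.979. The test was run on each probe that carried this mark on the 3 arrays of either population. Of the members, 8 of 9 genes and 10 of 12 probes were tested. Only 5 of the 9 genes (Shh, Ihh, Ptch1, Smo and Gli3) had a probe well above background on all 6 arrays. Dhh, Gli1 and Hhip passed through 1 population alone.

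**Figure D1:**
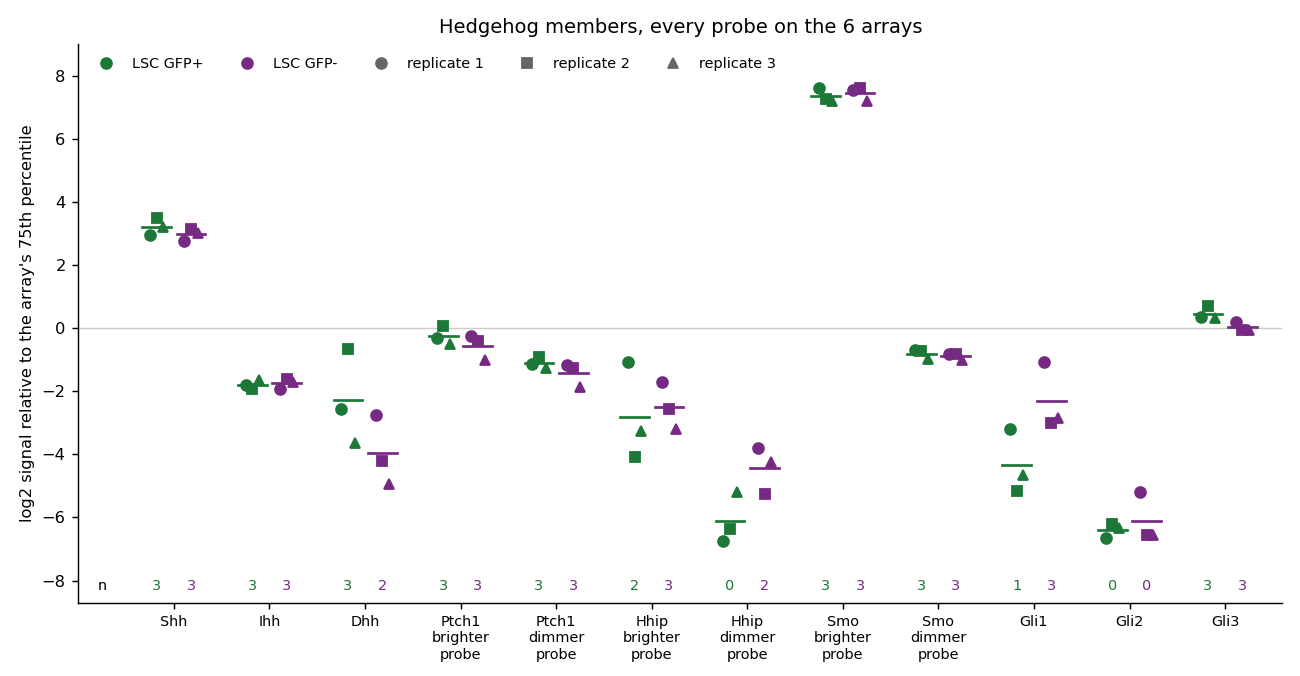
Log2 signal relative to the array's 75th percentile (vertical axis) of the 12 probes of the 9 Hedgehog genes (horizontal axis); green is LSC GFP+, purple is LSC GFP-, symbols mark the replicate, bars are means of 3 arrays, and the number below each column (n) counts the arrays on which the probe was well above background. The 3 LSC GFP+ values of Gli1 lie below the 3 LSC GFP- values, those of Gli3 lie above, and Gli2 was well above background on no array.

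The labelled cell type was checked against its markers. The 5 basal markers (Krt5, Krt14, Krt15, Trp63 and Itga6) were well above background on all 6 arrays, and their summed level, the sum of linear signals in units of each array's 75th percentile, was 216.5 to 235.5 in LSC GFP+ and 164.6 to 175.5 in LSC GFP- cells. Stromal and smooth muscle markers were also detected. All 6 smooth muscle markers had an unadjusted p under 0.05 (limma) and were lower in LSC GFP+ cells, with summed levels of 6.206 to 9.998 against 19.56 to 37.7 and a median difference of -1.73. Of 10 tested stromal markers, 5 were lower and 1 (Dcn) was higher at that threshold, with summed levels of 19.94 to 26.16 against 22.07 to 63.01. Of the immune markers, Lyz2 was well above background on no array, and none of the tested endothelial, immune, or glial and neuronal markers passed the threshold. The sort selects cells positive for CD49f and Sca-1. Earlier work on adult prostate, cited by the study, places stromal cells in a fraction that lacks CD49f. In the study's own flow cytometry, the vascular smooth muscle cells with high GFP carried little of either marker. The gate is set to leave out cells with those profiles, and whether such cells remained in the sorted samples was not tested. In bulk RNA, fewer cells of a type and less RNA per cell cannot be told apart.

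Of the 8 member genes tested, 1 passed an unadjusted p of 0.05 in limma. This was Gli1, which was lower in LSC GFP+ cells, and none passed after Benjamini-Hochberg adjustment. Over all 15951 genes tested, 9.31% passed the unadjusted threshold, 4.51% higher and 4.8% lower in LSC GFP+ cells, and 0 (0%) passed after adjustment. The members' share was near that of all genes. Of the 10 member probes 1 passed, against 7.9% of the 37005 probes. The differences of the 8 genes were positive in 4 and negative in 4, with a median of 0.10 beside a median of 0.01 over all genes. Smo counts here as negative through its probe with the A and C run, at -0.10, and its other probe differed by 0.07. The populations did not overlap for 2 members, Gli3 with LSC GFP+ above and Gli1 with LSC GFP+ below, against 14.6% of all genes in either direction, 8.55% above and 6.07% below. Since Dhh, Gli1 and Hhip were tested only through the population in which every array was well above background, the count carries no weight for the pathway.

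**Figure D2:**
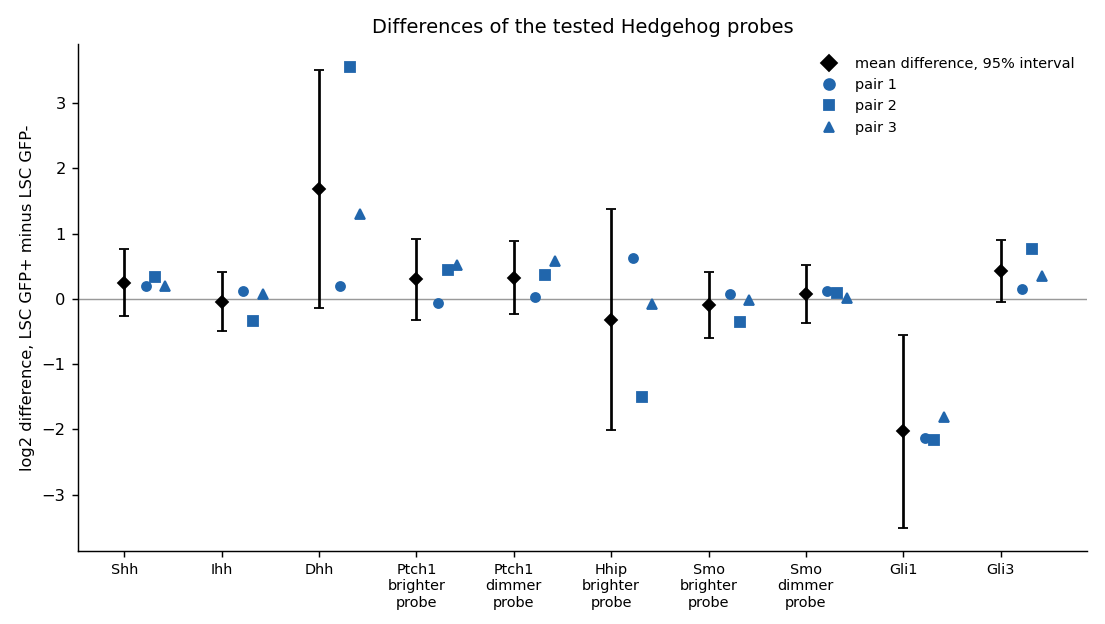
Difference of log2 signal between LSC GFP+ and LSC GFP- cells (vertical axis) for the 10 tested Hedgehog probes (horizontal axis); diamonds are mean differences with their 95% interval from limma (n = 3 per population), and blue symbols are the differences between samples with the same replicate number. The Gli1 interval lies below 0, and the intervals of the other 9 probes include 0.

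Of the ligands, Shh was read from the most spots per array. It is the ligand best known from the budding prostate epithelium. Its levels were 2.94, 3.48 and 3.21 in LSC GFP+ replicates 1, 2 and 3, and 2.75, 3.14 and 3.01 in LSC GFP- replicates 1, 2 and 3. Replicate 2 was the highest in both populations and replicate 1 the lowest, and the populations overlapped. The mean was 3.21 ± 0.27 (SD, n = 3) in LSC GFP+ cells, against 2.97 ± 0.20 (SD, n = 3) without GFP. The difference was 0.24, with a 95% interval from -0.27 to 0.76 (limma, unadjusted p = 0.303, adjusted p = 0.981), and it was positive in all 3 pairs of samples with the same number, at 0.20, 0.34 and 0.20.

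The Shh probe was printed in 10 spots on every array, which gives the error of the measurement itself. Within an array the SD over the spots, without those marked as outliers, was between 0.0397 and 0.09. In each pair, the mean of the LSC GFP+ spots exceeded that of the LSC GFP- spots of the same number by more than this SD. The spots are repeats of 1 hybridisation and not of a cell population, so the spread between samples is the error of the unblocked comparison. A fit blocked on the replicate number rests on the spread of the pair differences instead. There the Shh difference had an SE of 0.13, against 0.22 unblocked, and an unadjusted p of 0.122 (limma, adjusted p = 0.469).

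**Figure D3:**
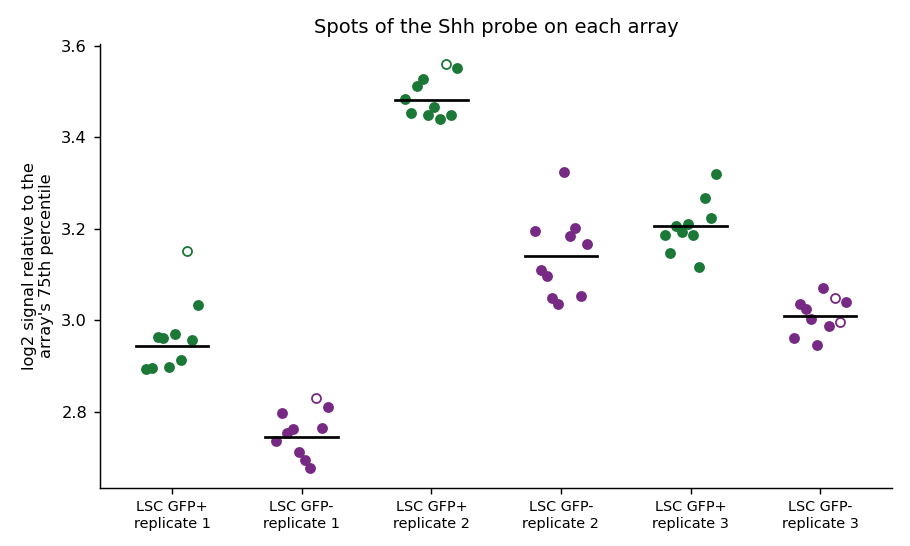
Log2 signal relative to the array's 75th percentile (vertical axis) of the 10 spots of the Shh probe on each of the 6 arrays (horizontal axis); filled circles are spots used, open circles are spots marked as outliers, and black lines are means of the used spots. The array means run from 2.75 in LSC GFP- replicate 1 to 3.48 in LSC GFP+ replicate 2, while the spots of an array spread by an SD of at most 0.09.

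Ihh, the ligand best known from cartilage and gut, was well above background on all arrays at chr1:74991906-74991965 (mm9, minus strand). Its levels were -1.80, -1.94 and -1.65 in LSC GFP+ and -1.93, -1.60 and -1.72 in LSC GFP- replicates 1, 2 and 3. The values of both populations were interleaved. The difference was -0.05 with a 95% interval from -0.50 to 0.41 (limma, unadjusted p = 0.817), and its sign depended on the scaling, with 0.00 under quantile normalization and 0.02 when arrays were scaled by their median.

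Dhh, the ligand best known from Sertoli and Schwann cells, was the ligand that varied most (chr15:98723465-98723524, mm9, minus strand). Its levels were -2.57, -0.66 and -3.64 in LSC GFP+ and -2.77, -4.21 and -4.94 in LSC GFP- replicates 1, 2 and 3. It was well above background on 3 of 3 LSC GFP+ and 2 of 3 LSC GFP- arrays. LSC GFP+ replicate 2 stood apart, and the populations overlapped because LSC GFP- replicate 1 was above LSC GFP+ replicate 3. The difference was 1.68 with a 95% interval from -0.15 to 3.51 (limma, unadjusted p = 0.0667, adjusted p = 0.693), made up of 0.19, 3.55 and 1.29 in the 3 pairs. In the fit blocked on the replicate number the unadjusted p was 0.0466 (limma, adjusted p = 0.327), which is past the unadjusted threshold. Without LSC GFP+ replicate 2 the difference was 0.86 (limma, unadjusted p = 0.231). It was past the threshold without LSC GFP+ replicate 3, at 2.35 (limma, unadjusted p = 0.0133), and without LSC GFP- replicate 1, at 2.28 (limma, unadjusted p = 0.0223). The Schwann cell marker Sox10, a member of the glial and neuronal list, differed by -0.66 (limma, unadjusted p = 0.135), and the summed level of that list without Elavl4, whose brighter probe made up most of it, was 1.311 to 8.7 in LSC GFP+ and 2.445 to 28.28 in LSC GFP- cells.

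Ptch1, the receptor and a target gene of the pathway, was measured by 2 probes. At the brighter, at chr13:63610298-63610357, its levels were -0.32, 0.05 and -0.50 in LSC GFP+ and -0.25, -0.39 and -1.02 in LSC GFP- replicates 1, 2 and 3. LSC GFP- replicate 3 was the lowest value and LSC GFP+ replicate 2 the highest, with the others between them. The difference was 0.30 with a 95% interval from -0.32 to 0.91 (limma, unadjusted p = 0.299, adjusted p = 0.981). The dimmer probe, at chr13:63612879-63612938, differed by 0.32 with an interval from -0.24 to 0.89 (limma, unadjusted p = 0.22), so both probes gave a similar size. The pairs differed by -0.07, 0.44 and 0.52 at the brighter probe. Without LSC GFP- replicate 3 the difference at that probe was 0.07 (limma, unadjusted p = 0.801).

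Hhip, the membrane protein that binds and holds ligand, had a wide spread between samples. At its brighter probe (chr8:82494280-82494339, mm9, minus strand) the levels were -1.07, -4.07 and -3.27 in LSC GFP+ and -1.69, -2.57 and -3.19 in LSC GFP- replicates 1, 2 and 3. LSC GFP+ replicate 1 was the highest of the 6 and LSC GFP+ replicate 2 the lowest, and the probe was well above background on 2 of 3 LSC GFP+ and 3 of 3 LSC GFP- arrays. The difference was -0.32 with a 95% interval from -2.01 to 1.37 (limma, unadjusted p = 0.674). It was -1.19 without LSC GFP+ replicate 1 (limma, unadjusted p = 0.0386) and 0.31 without LSC GFP+ replicate 2 (limma, unadjusted p = 0.671), so single arrays set its direction. The dimmer probe, at chr8:82490729-82490788, was well above background on 0 of 3 LSC GFP+ and 2 of 3 LSC GFP- arrays and was not tested. Its levels were -6.76, -6.36 and -5.19 in LSC GFP+ and -3.80, -5.27 and -4.24 in LSC GFP- cells, and no fold is given because the brighter mean of -4.44 lay below the detection floor of -4.42.

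Smo, the membrane protein that passes the signal on, was measured by the 2 probes whose stretches are shown above. At A_51_P258766 its levels were -0.70, -0.73 and -0.99 in LSC GFP+ and -0.82, -0.82 and -1.0 in LSC GFP- replicates 1, 2 and 3. Replicate 3 was the lowest in both populations. The difference was 0.07 with a 95% interval from -0.37 to 0.51 (limma, unadjusted p = 0.714).

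The other Smo probe, A_55_P2121484, carries the A and C run and had levels of 7.60, 7.26 and 7.18 in LSC GFP+ and 7.53, 7.62 and 7.19 in LSC GFP- replicates 1, 2 and 3. The difference was -0.10 with a 95% interval from -0.60 to 0.40 (limma, unadjusted p = 0.658), of opposite sign to that of A_51_P258766, and neither probe passed the threshold. Of all probes, 100 (0.18%) hold 10 alternating A and C bases (ACACACACAC or CACACACACA), and the median level of these over the 6 arrays was 3.29, against -2.51 over all probes. Among the 55681 probes, 260 were brighter than this Smo probe. Whether its signal comes from Smo RNA was not tested, and A_51_P258766 gives the Smo value without such a run.

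Gli1, an activator and the target gene most often read as a sign of Hedgehog response, was lower in LSC GFP+ cells. Its levels were -3.19, -5.17 and -4.66 in LSC GFP+ and -1.06, -3.00 and -2.85 in LSC GFP- replicates 1, 2 and 3. Replicate 1 was the highest in both populations, and all 3 LSC GFP+ values lay below all 3 LSC GFP- values, by the small margin between -3.19 and -3.00. The mean was -4.34 ± 1.03 (SD, n = 3) in LSC GFP+ cells, against -2.30 ± 1.08 (SD, n = 3) without GFP. The measured difference was -2.03 ± 0.64 (SE), with a 95% interval from -3.51 to -0.56 (limma, unadjusted p = 0.013, adjusted p = 0.38).

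The pairs of samples with the same number differed by -2.13, -2.17 and -1.81, so the differences within pairs were closer to each other than the samples of a population were. In the fit blocked on the replicate number the SE was 0.15 and the unadjusted p was 3.54e-05 (limma, adjusted p = 0.0598). The probe was well above background on 1 of 3 LSC GFP+ and 3 of 3 LSC GFP- arrays, with processed signals of 43.71, 13.8 and 16.33 against 191.6, 50.98 and 58.27. Gli1 was thus tested only through LSC GFP- cells, and the close pair differences and the p-values rest partly on 2 dim LSC GFP+ values. The small p is therefore not independent of the filter, and the size of the difference is not settled. It was -1.62 with the 2 dim LSC GFP+ values raised to the lowest detected level of their arrays, and -0.88 with normexp background correction (limma, unadjusted p = 0.011). The call was lost in the methods' t-test (unadjusted p = 0.0772), without LSC GFP+ replicate 2, at -1.62 (limma, unadjusted p = 0.0543), and with both arrays of replicate 3 left out, at -2.15 (limma, unadjusted p = 0.0574).

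Summed levels of smooth muscle and stromal markers were, like Gli1, lower in LSC GFP+ cells in each pair. The smooth muscle sum was highest in LSC GFP- replicate 1, at 37.7, the array where Gli1 was highest, and was 19.56 and 22.1 in LSC GFP- replicates 2 and 3. The stromal sum was 63.01 in LSC GFP- replicate 1, and 22.07 and 37.63 in the other LSC GFP- arrays. In LSC GFP+ replicates 1, 2 and 3 the smooth muscle sum was 9.998, 6.206 and 9.462 and the stromal sum 19.94, 20.93 and 26.16. The smooth muscle sum thus ordered the 6 arrays as Gli1 did. Among the LSC GFP+ arrays the stromal sum was lowest in replicate 1, where Gli1 was highest. Of the LSC GFP+ values of Gli1, 2 were not well above background, so the order of these 2 carries no weight. Dcn, the stromal marker that was higher in LSC GFP+ cells, made up much of the LSC GFP+ sums. A stromal sum without Dcn was added after the data were seen. It was 9.568, 7.408 and 10.48 in LSC GFP+ and 56.21, 18 and 30.96 in LSC GFP- replicates 1, 2 and 3. This sum was also lower in LSC GFP+ cells in each pair, and among the LSC GFP+ arrays it was highest in replicate 3. Without LSC GFP- replicate 1, the Gli1 difference was -1.41 (limma, unadjusted p = 0.0363). The part of these cells in the Gli1 difference was not tested.

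**Figure D4:**
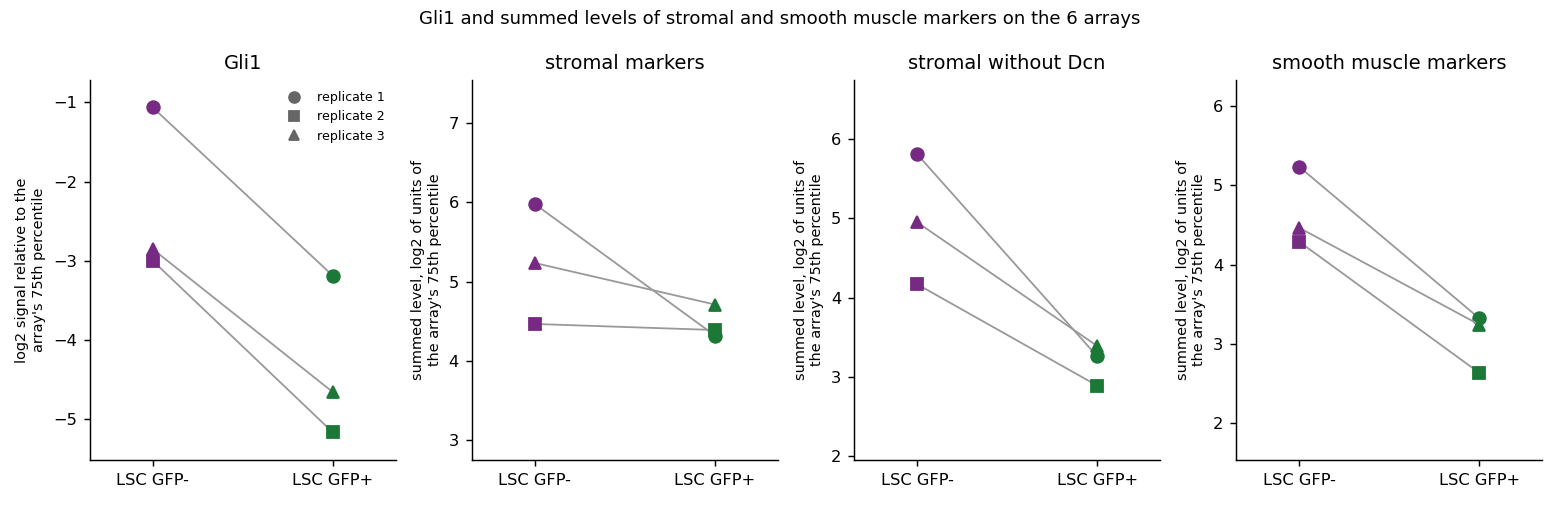
Level of Gli1 (log2 signal relative to the array's 75th percentile) and the log2 of the summed levels of the stromal markers, the stromal markers without Dcn, and the smooth muscle markers (vertical axes, all spanning the same log2 range) in LSC GFP- and LSC GFP+ cells (horizontal axis); symbols mark the replicate and grey lines join samples with the same number. Gli1, with differences of -2.13, -2.17 and -1.81, and all 3 sums were lower in LSC GFP+ cells in each pair. In replicate 2 the stromal sums were 22.07 and 20.93 with Dcn, and 18 and 7.408 without it.

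Gli2, the main activator, was well above background on 0 of the 6 arrays at chr1:120731255-120731314 (mm9, minus strand) and was not tested. Its measured levels were -6.66, -6.21 and -6.34 in LSC GFP+ and -5.20, -6.55 and -6.56 in LSC GFP- cells. The scanner software gives dim spots a substitute value, so these levels carry no order.

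Gli3 was the other member whose populations did not overlap, with LSC GFP+ above. Its levels were 0.36, 0.71 and 0.30 in LSC GFP+ and 0.20, -0.05 and -0.05 in LSC GFP- replicates 1, 2 and 3. The highest value was that of LSC GFP+ replicate 2, and the margin between the populations was that between 0.30 and 0.20. The difference was 0.43 with a 95% interval from -0.05 to 0.90 (limma, unadjusted p = 0.0733, adjusted p = 0.712), made up of 0.15, 0.77 and 0.36 in the 3 pairs. It did not pass the threshold, except with normexp background correction, at 0.37 (limma, unadjusted p = 0.0421). Without LSC GFP+ replicate 2 it was 0.30 (limma, unadjusted p = 0.227).

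The other genes of the pathway were taken from 3 lists, of which 36 genes are on the array and 33 were tested. At an unadjusted p under 0.05 (limma) 7 of the 33 passed, 3 higher and 4 lower in LSC GFP+ cells, against 9.31% of all genes, and none passed after adjustment. Their median difference was 0.05. Scube1, Foxf1a and Foxl1 were not tested.

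Of 11 tested genes for ligand processing, release and co-reception, 1 was higher and 2 were lower. Gpc3, a glypican of the cell surface that binds Hedgehog ligand and competes with Ptch1 for it, was higher. Its levels were 3.26, 3.27 and 3.21 in LSC GFP+ and 2.43, 1.62 and 2.36 in LSC GFP- replicates 1, 2 and 3. The LSC GFP+ values lay close together and above all LSC GFP- values, and the difference was 1.11 ± 0.25 (SE), with a 95% interval from 0.53 to 1.70 (limma, unadjusted p = 0.00241, adjusted p = 0.196). A second Gpc3 probe was well above background on no array.

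Lrp2, an endocytic receptor that binds Shh, was lower in LSC GFP+ cells. Its levels were -1.89, -1.92 and -1.70 in LSC GFP+ and -1.27, -0.88 and -1.13 in LSC GFP- replicates 1, 2 and 3, without overlap, and the difference was -0.74 (95% interval -1.20 to -0.28, limma, unadjusted p = 0.0059, adjusted p = 0.285). Scube3, of the secreted family that helps release ligand, differed by -0.57 at its brighter probe (limma, unadjusted p = 0.0221, adjusted p = 0.469) and by -0.38 at the other (limma, unadjusted p = 0.0673). It lost the call when arrays were scaled by their median, at -0.50 (limma, unadjusted p = 0.0521), and at -0.53, -0.47 and -0.53 when LSC GFP- replicate 2, LSC GFP+ replicate 3 and LSC GFP- replicate 3 were dropped in turn.

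The co-receptors Cdon, Boc and Gas1 bind ligand together with Ptch1. Cdon differed by -0.48 (limma, unadjusted p = 0.0694) and Boc by -0.10 (limma, unadjusted p = 0.766). The 3 probes of Gas1 disagreed. The brightest differed by 0.09 (limma, unadjusted p = 0.662), a dimmer one by -1.70 (limma, unadjusted p = 0.00723, adjusted p = 0.304) and the dimmest by -0.30 (limma, unadjusted p = 0.25). The probe with the difference of -1.70 had levels of -3.43, -3.65 and -3.48 in LSC GFP+ and -0.61, -2.62 and -2.23 in LSC GFP- replicates 1, 2 and 3, so LSC GFP- replicate 1, the array with the highest stromal sum, was the highest value.

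Of the 15 tested genes of the cilium and the intracellular part of the pathway none passed the unadjusted threshold (limma), against 9.31% of all genes. The methods' t-test put 2 of them, Sufu and Gsk3b, past it. Their differences ran from -0.26 (Stk36, a kinase homolog) to 0.31 (Sufu, which holds Gli proteins in the cytoplasm), and 11 of 15 were positive, with a median of 0.13. The intervals give the room left for a change. For Sufu it ran from -0.10 to 0.72 (limma, unadjusted p = 0.12). For Ift88, a part of the transport train that builds cilia, the difference was 0.13 with an interval from -0.31 to 0.56. The other genes named by signal from this list, the Gli adaptor Spop and the kinases Csnk1a1, Prkaca and Gsk3b, differed by 0.08, 0.17, -0.24 and 0.23.

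Of 7 tested target genes 2 were higher and 2 were lower in LSC GFP+ cells, and Foxf2, 1 of the lower, was tested only through LSC GFP- cells. Ccnd1, which drives entry into the cell cycle, had means of 4.12 ± 0.06 (SD, n = 3) and 3.34 ± 0.22 (SD, n = 3), a difference of 0.78 (95% interval 0.33 to 1.23, limma, unadjusted p = 0.00429, adjusted p = 0.245). Bcl2, which protects from cell death, differed by 0.55 (limma, unadjusted p = 0.0261, adjusted p = 0.494). Both are also targets of other pathways. Bcl2 lost the call under quantile normalization, at 0.48 (limma, unadjusted p = 0.0851), and when LSC GFP- replicate 1, 2 or 3 or LSC GFP+ replicate 2 was left out, each at a difference between 0.42 and 0.60. Ccnd2, a cyclin of the same family, differed by 0.44 (limma, unadjusted p = 0.0543).

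Mycn, a transcription factor of dividing progenitors, was lower in LSC GFP+ cells. Its levels were -1.0, -0.95 and -0.73 in LSC GFP+ and 0.08, -0.03 and 0.20 in LSC GFP- replicates 1, 2 and 3, and the populations were well apart. The difference was -0.98 ± 0.19 (SE), with a 95% interval from -1.42 to -0.54 (limma, unadjusted p = 0.000887, adjusted p = 0.139). The call was kept in all 20 alternatives, with differences from -1.06 to -0.80.

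Foxf2, a mesenchymal transcription factor, had levels of -2.91, -5.15 and -6.38 in LSC GFP+ and -1.76, -3.93 and -2.69 in LSC GFP- replicates 1, 2 and 3. LSC GFP- replicate 1 was the highest, as it was for Gli1, but the populations overlapped. The difference was -2.02 with a 95% interval from -4.02 to -0.01 (limma, unadjusted p = 0.0492, adjusted p = 0.629), with 1 of 3 LSC GFP+ arrays well above background. It ran from -2.97 to -0.67 over the alternatives, the latter with normexp background correction (limma, unadjusted p = 0.034), and was -1.04 with the 2 dim LSC GFP+ values raised as for Gli1. It lost the call under quantile normalization, at -1.90 (limma, unadjusted p = 0.0633), without a filter on dim probes (limma, unadjusted p = 0.0677), in the methods' t-test (unadjusted p = 0.166), and when any of 4 arrays was left out, among them LSC GFP- replicate 1 (-1.50, limma, unadjusted p = 0.15) and LSC GFP+ replicate 3 (-1.23, limma, unadjusted p = 0.152). The stromal and smooth muscle sums given with Gli1 were, like Foxf2, lower in LSC GFP+ cells in each pair and highest in LSC GFP- replicate 1. Among the LSC GFP+ arrays Foxf2 and the smooth muscle sum, at 9.998, were highest in replicate 1. The stromal sum, at 26.16, was highest in replicate 3, where Foxf2 was lowest. With 1 of the 3 LSC GFP+ values of Foxf2 well above background, the order of the dim values carries no weight. The part of stromal and smooth muscle cells in the Foxf2 difference was not tested. Bmp4, a growth factor of the prostate mesenchyme, differed by -0.50 (limma, unadjusted p = 0.0791), and the transcription factor Osr1 by -0.32 (limma, unadjusted p = 0.371).

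**Figure D5:**
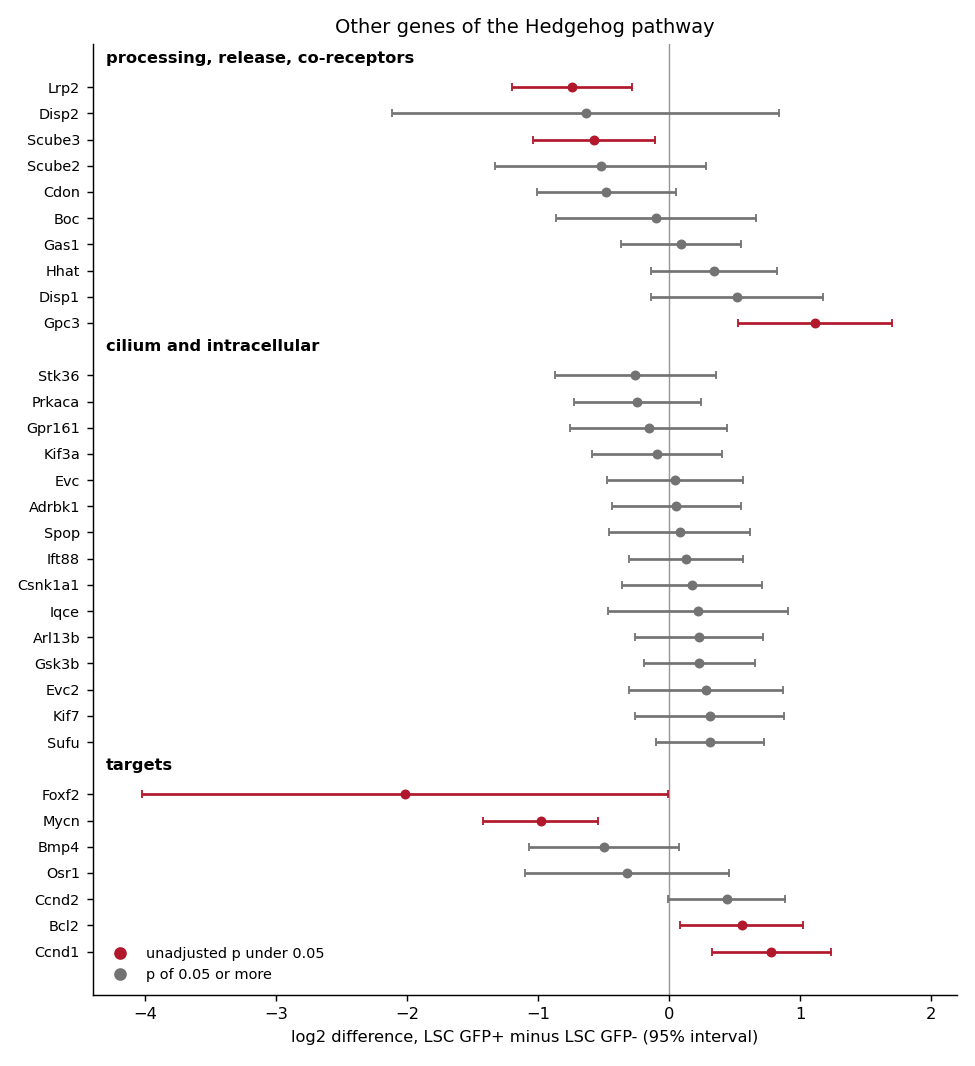
Difference of log2 signal between LSC GFP+ and LSC GFP- cells (horizontal axis) for 32 of the 33 tested further genes of the Hedgehog pathway (vertical axis), by list; points are mean differences, lines their 95% intervals from limma (n = 3 per population), and red marks an unadjusted p under 0.05. Gpc3, Ccnd1 and Bcl2 lie to the right of 0 and Lrp2, Scube3, Mycn and Foxf2 to the left, and the 15 genes of the cilium and intracellular list all have intervals that include 0.

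Blocked on the replicate number, 11 of the 33 genes passed the unadjusted threshold (limma), against 2636 of all 15951 genes and 0 after adjustment. The 4 genes added were Bmp4, Ccnd2, Cdon and Scube2, with unadjusted p of 0.0153, 0.0195, 0.0204 and 0.035. With both arrays of replicate 2 left out, 2 of the 33 passed, Gpc3 and Mycn, and 851 of all genes.

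Genes with a profile most like that of a member were searched among 14940 genes well above background on all 6 arrays, by the root mean square difference of log2 profiles, each centred on its own mean. For Shh these were Fam108c, Frrs1 and Gnpnat1, at 0.0366, 0.0454 and 0.0484. They differed between the populations by 0.25, 0.26 and 0.28, with the same high value in LSC GFP+ replicate 2 as Shh. For Ptch1 they were Il17rd, Grlf1 and Phtf2, at 0.0744, 0.0885 and 0.0918. Gli1 was left out of the search because it was not well above background on all arrays.

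The promoters of the members were searched for the Gli consensus GACCACCCA on both strands, in windows of RefSeq sequence (GRCm38.p6) around the gene start. The letters were found in 0 of the 7 windows of 7 members (Ihh, Dhh, Ptch1, Hhip, Smo, Gli2 and Gli3) and in 83 of 32851 windows of all genes (0.253%). This says only that these letters are not in those windows.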

How the data were processed

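Total RNA of 6 samples was amplified, labelled with Cy3 and hybridised to SurePrint G3 Mouse 8x60K arrays, all on the same slide and in the same scan, so neither can be compared as a batch. Per the file headers the deposited intensity values are the authors' Feature Extraction 11.0.1.1 output (the submitters' processing notes name 10.7.3.1), on a linear scale, with background subtracted, spatial trends removed, a substitute value for dim spots and no normalization between arrays. The deposited flags other than intensity, of value 0 or 1, mark spots well above background, saturated or outlying. A series table of the same signals, rounded, served as an alternative.

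Each signal was taken as log2, less the 75th percentile of its array. Outlier spots (123 to 154 per array) were left out and spots of a probe averaged. The test was limma 3.58.1 (lmFit, eBayes; R 4.3.3) of LSC GFP+ against LSC GFP-, two-sided, with Benjamini-Hochberg adjustment over all 37005 probes tested. A gene stood by its brightest tested probe, and a call is an unadjusted p under 0.05, the threshold of the study's methods. With 3 against 3 samples no exact permutation p can go under 0.1, and the number of arrays limits the precision. The script was tested on simulated data. Gene names are those of the array design, counted as genes where a RefSeq table (GRCm38.p6, names only) lists them. Sequences came from the probe column of the scanner files and promoter windows from RefSeq.

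Groups and replicate numbers came from the sample titles. Deviations from the population means correlated at 0.433, 0.277 and 0.668 for samples 1, 2 and 3 of both populations, each over 0.1. LSC GFP+ replicate 1 and LSC GFP- replicate 2, of different number, reached 0.223, close to the 0.277 of samples 2, and the other 5 pairs of different number were negative. Deviations cancel within a population, so these negative values partly follow from the positive ones and are no separate support. For the positive values of all 3 numbers, same-numbered samples were treated as pairs, and a fit with the number as a block was an alternative. The sources used here do not say what same-numbered samples share, and p-values measure the spread between these samples. The other alternatives were normexp background correction (offset 50), scaling by the array median, quantile normalization, the rounded table, outlier spots kept, no filter and a filter on all 6 arrays, the methods' t-test with equal variances, an intensity trend, the mean over probes and each array left out. Leaving out both arrays of a number, each probe of a gene on its own, dim values of Gli1 and Foxf2 raised to the lowest detected level, and marker sums without Dcn or Elavl4, were added after seeing the data.

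The value of 1 gene of the other Hedgehog lists is not reported here, though the list counts include it. The members and lists were chosen with earlier results of these data known. The text names all 9 members at every probe, every gene of the other Hedgehog lists past the threshold with up to 4 more per list of the highest mean signal, and the 3 genes most like Shh and Ptch1 (Gli1 was not well above background on all arrays). Ift88, Stk36, Sufu, the block's Scube2 and the dimmer probes fall outside this rule and were chosen after their values were seen.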

Additional observations from a re-analysis of the deposited data

How the results depend on the processing

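The number of arrays, and for Dhh, Gli1, Gli2, Hhip and Foxf2 the signal over background, limit what can be said. Against 1 member past the threshold in the reported setting, 2 passed with normexp background correction (Gli1 and Gli3), 0 when a probe had to be well above background on all 6 arrays, where Gli1 was not tested, and 0 in the methods' t-test, where Gli1 kept its difference of -2.03 with an unadjusted p of 0.0772. Under the replicate block, which keeps the pairing, 2 members passed (Dhh and Gli1), 11 of the other Hedgehog genes against 7, and 2636 of all genes against 1485 and the block changed no other call of a member. With 1 array left out, between 0 and 2 members passed, 0 without LSC GFP+ replicate 2, and 2 when LSC GFP+ replicate 1, LSC GFP- replicate 1 and LSC GFP+ replicate 3 were dropped in turn. The other Hedgehog genes then ran from 5 to 9 and all genes from 1067 to 1758. With both arrays of replicate 1, 2 or 3 left out, 2, 1 and 0 members passed, 6, 2 and 6 other Hedgehog genes, and 1317, 851 and 1370 of all genes.

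Signs reversed for 3 members that passed no threshold in the reported setting. Ihh, at -0.05, was 0.0046 under quantile normalization, 0.022 with scaling by the array median, 0.024 without LSC GFP+ replicate 2, 0.028 without LSC GFP- replicate 2 and 0.098 without both arrays of replicate 2. Smo, at -0.10, was 0.030 without both arrays of replicate 2 and 0.073 at probe A_51_P258766. Hhip, at -0.32, was 0.08 without LSC GFP- replicate 1, 0.31 without LSC GFP+ replicate 2 and 0.27 without both arrays of replicate 2. With 1 array left out, Ihh ran from -0.14 to 0.028, Smo from -0.23 upwards, always below 0, and Hhip from -1.19 to 0.31. Shh stayed between 0.11 and 0.38, Ptch1 between 0.07 and 0.48, Dhh between 0.72 and 2.42, Gli3 between 0.25 and 0.56 and Gli1 between -2.61 and -0.88 in all alternatives run for them. Gli1 kept its call in 16 of 19. Scaling by the array median put 788 genes higher and 559 lower, and the methods' t-test 937 and 577, against 720 and 765.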
